A study of Mus musculus with 40 samples.

Results

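The response to rapamycin of the extensor digitorum longus (EDL), a fast hindlimb muscle, was compared between mice with and without Tsc1 in their muscle fibers at 9 months of age. The measure was the interaction, which for each gene is the log2 fold change with rapamycin in knockout mice minus the log2 fold change with rapamycin in control mice. It drew on 20 of the 40 mRNA sequencing libraries of the series, in 4 groups of 5 mice with 1 library per mouse. The 9mCON group held control littermates, which carried the floxed Tsc1 alleles (Tsc1fl/fl) without Cre recombinase and received vehicle, and 9mCON+RM the same genotype given rapamycin (RM). The 9mTSCmKO group held mice with a muscle-fiber knockout of Tsc1 given vehicle, and 9mTSCmKO+RM the knockout given rapamycin. Every mouse of the 4 groups had the strain label Tsc1tm1Djk/J, so the controls carried the floxed allele too. Vehicle or rapamycin was injected intraperitoneally on 3 days up to dissection, at 4 mg per kg in the labels, while the study text names a higher dose, so that the dose given is not certain. What drives Cre is not given in the sources used here. RNA came from whole muscle, which holds vessels, connective tissue, nerve and immune cells beside the fibers in which Tsc1 is removed.

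TSC1 is the partner that stabilizes TSC2 in the complex that holds the small GTPase RHEB, and through it the kinase complex mTORC1, inactive. Muscle fibers without TSC1 therefore keep mTORC1 active regardless of feeding and growth factors, which raises protein and ribosome synthesis and blocks autophagy, and in mice leads to a slowly progressing myopathy. Rapamycin binds FKBP12 and blocks mTORC1 in every cell it reaches, so that it also acts on control fibers and on the other cells of the muscle. An interaction that departs from 0 says that a gene answered the drug differently in the absence of TSC1, whether the answer was larger, smaller or of the opposite sign.

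Total counts ran from 12234422 to 21315299 per library, and levels are given as CPM, counts scaled to the library total and by the TMM method. Tsc1 (chr2:28641228-28691167 on GRCm38) was at 51.1, 61.5, 91.6, 89.01 and 122 CPM in the 9mCON libraries and 77.1, 78.01, 71.5, 80.4 and 86.7 in those of 9mCON+RM. It was at 35.6, 27.4, 26.3, 28.4 and 24.2 CPM in the 9mTSCmKO libraries and 17.6, 18.7, 25.5, 19.5 and 19.5 in those of 9mTSCmKO+RM, so that each knockout library lay below each control library. The interaction for Tsc1 was -0.42 ± 0.25 (SE), adjusted p = 0.467. The summed level of 8 markers of fast fibers was 166400 to 182100 CPM in untreated and 207300 to 217000 in rapamycin-treated controls, against 106000 to 123100 in untreated and 158000 to 196000 in rapamycin-treated knockouts. It was thus higher with rapamycin in both genotypes without overlap, and its part in the results was not tested. Of 8 lymphocyte and neutrophil markers 0 reached the level needed for testing. The spread between mice, as biological coefficient of variation, was 18.9 to 28.1% in the 4 groups, with the largest value in 9mTSCmKO. In each group 1 library stood apart from the other 4 along a shared direction (replicate 2 of 9mCON, 1 of 9mCON+RM, 3 of 9mTSCmKO and 1 of 9mTSCmKO+RM), and 129 of the 209 genes described next were also called without these 4 libraries.

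The response to rapamycin differed between the genotypes for 209 of 13159 genes tested (1.59%) at an adjusted p under 0.05, in edgeR's quasi-likelihood test of the interaction. The interaction was positive for 106 of them (0.806%), called higher here, and negative for 103 (0.783%), called lower. For comparison, rapamycin itself changed 2966 genes in TSCmKO (22.5%, with 11% higher and 11.6% lower) and 760 genes in CON (5.78%, with 2.17% higher and 3.6% lower). Genotype changed 3685 genes under vehicle (28%, with 14.3% higher in TSCmKO and 13.7% lower) and 1851 under rapamycin (14.1%, with 8.29% higher and 5.78% lower). These contrasts share libraries with the interaction and are given beside it as a description. Among the 103 lower genes, the change with rapamycin was larger in TSCmKO for 97, and 100 were called in the TSCmKO arm against 9 in the CON arm. Their median log2 change was -1.17 in TSCmKO and -0.01 in CON. The 106 higher genes were more mixed, with the larger change in TSCmKO for 77 and in CON for 29. Their median change was 0.90 in TSCmKO and -0.22 in CON, and 68 of them had fitted changes of opposite sign in the genotypes, of which 5 were called in both arms. The interaction was at least 2-fold for 70 lower and 69 higher genes. At the edge of the threshold, Ache (1.15) and Bcr (1.01) had an adjusted p of 0.0497, and Rnf6 (-0.56) and Angptl1 (1.98) lay just outside it at 0.0503 and 0.0508. For Gm15943 and Muc15, both lower, 9mCON held at most 3 counts in each library, and their fitted interaction is therefore no bound.

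**Figure D1:**
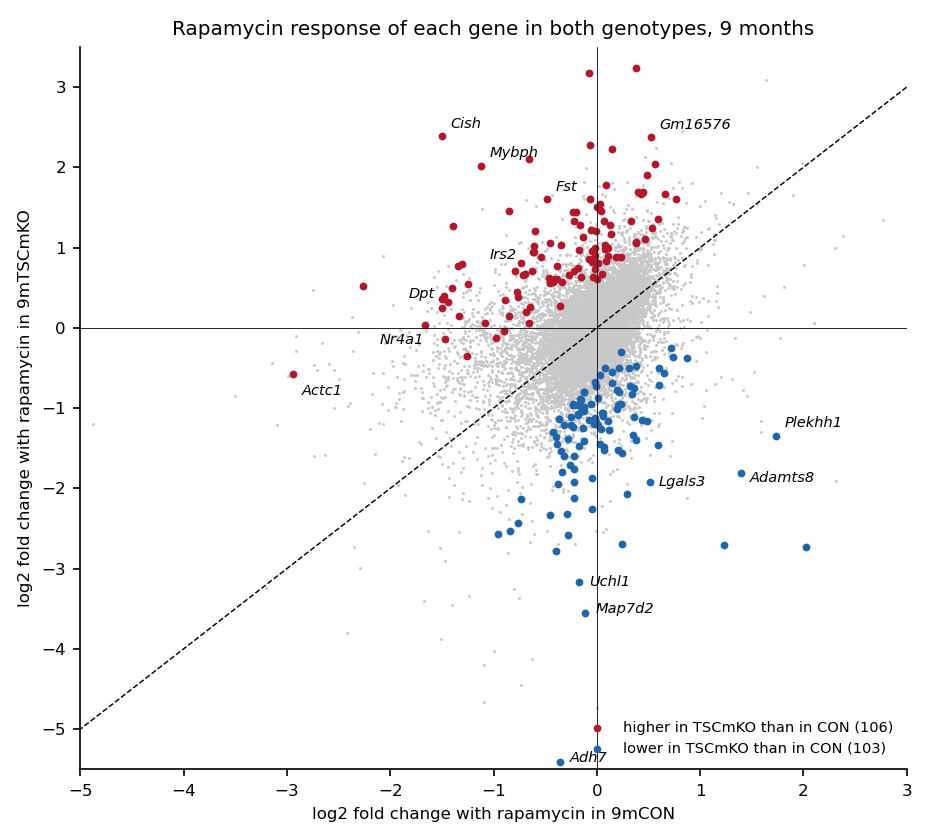
Log2 fold change with rapamycin in 9mCON (horizontal axis) against that in 9mTSCmKO (vertical axis), 1 point per gene tested, 5 libraries in each of the 4 groups. Red points are the 106 genes with a higher and blue points the 103 genes with a lower interaction, grey points all others, and the dashed line marks equal responses. Most blue points lie near 0 on the horizontal axis and below 0 on the vertical one.

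The interaction genes were read beside the genotype difference of the same libraries. The genotype difference under rapamycin equals that under vehicle plus the interaction. For genes picked by their interaction the following counts are thus partly fixed in advance, and they serve as a description only. Of the 103 lower genes, 88 were higher in TSCmKO than in CON under vehicle, 3 were lower and 12 were not called. Under rapamycin 47 of these 88 were no longer called between the genotypes, 37 were still higher and 4 were lower in TSCmKO, whereas the 12 not called under vehicle were all lower in TSCmKO. Of the 106 higher genes, 80 were lower in TSCmKO under vehicle, 5 were higher and 21 were not called. Under rapamycin 57 of these 80 were no longer called, 9 were still lower and 14 were higher in TSCmKO, whereas the 21 not called under vehicle were all higher in TSCmKO. A gene that is not called may still differ. In a simulation with the sizes and mean levels of these 20 libraries the test found 4.48% of interactions of 1.5-fold, 35.8% of 2-fold and 93.9% of 4-fold. It changed 67, 67 and 66 of 13159 genes by these folds. Each gene had the average spread at its level, and no simulated library stood apart. The shares are therefore a rough guide, by which most small differences between the responses would be missed with 5 mice per group.

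Among called genes with a group mean of at least 5 CPM, the 12 with the most negative interaction all fell with rapamycin in TSCmKO muscle. In CON muscle 0 of the 12 were called lower by edgeR's test and 1, Adamts8, was called higher, while 7 had a change below 0 there, the lowest of them -0.40. Adh7 (chr3:138217760-138233382), a retinol and alcohol dehydrogenase, was at 0.764, 0.972, 0.484, 0.162 and 0.821 CPM in the 9mCON libraries and 1.202, 0.305, 0.431, 0.255 and 0.268 in those of 9mCON+RM. It was at 20.3, 13.2, 52.9, 18.4 and 10.8 CPM in the 9mTSCmKO libraries and 0.31, 0.685, 0.485, 0.752 and 0.423 in those of 9mTSCmKO+RM. All 5 vehicle-treated knockout libraries lay above the other 15, and the 9mTSCmKO+RM values overlapped those of both control groups. The interaction was -5.05 ± 0.78 (SE), adjusted p = 0.00222. Map7d2, a microtubule-binding protein, was at 37.2 ± 11.8 CPM in untreated and 3.21 ± 1.81 in rapamycin-treated knockouts (mean ± SD, n = 5), against 0.774 ± 0.282 in untreated and 0.718 ± 0.333 in rapamycin-treated controls, and its interaction was -3.44 ± 0.55 (SE), adjusted p = 0.00274. Uchl1, a ubiquitin hydrolase best known from neurons, fell in TSCmKO from 134 ± 82.96 to 15.00 ± 8.25 CPM, which was still above every control library, and its interaction was -2.99 ± 0.53 (SE), adjusted p = 0.00557. The same order, with all 9mTSCmKO+RM libraries between vehicle-treated knockouts and controls, was seen for Kcnk3, a leak potassium channel (-2.38), Poln, a DNA polymerase (-2.94), and Rasl10b, a small GTPase of the Ras family (-2.37). Lgals3, which encodes galectin-3 (-2.44), and Ephb1, an ephrin receptor (-2.02), returned to levels that overlapped those of 9mCON. Adamts8, a secreted metalloprotease, moved in opposite directions, with changes of -1.82 in TSCmKO (adjusted p = 3.78e-05) and 1.40 in CON (adjusted p = 0.00421) and an interaction of -3.21 ± 0.38 (SE), adjusted p = 0.000249.

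The iron transport gene Tfrc was among these 12. Tfrc (chr16:32608920-32632794), the transferrin receptor that takes up iron, was at 105, 175, 231, 219 and 245 CPM in the 9mCON libraries and 129, 113, 131, 205 and 225 in those of 9mCON+RM. It was at 125, 211, 157, 195 and 193 CPM in the 9mTSCmKO libraries and 21.5, 39.1, 27.9, 33.8 and 25.1 in those of 9mTSCmKO+RM. The 9mTSCmKO+RM libraries were all below the other 15, whereas the vehicle-treated genotypes overlapped. The interaction was -2.30 ± 0.33 (SE), adjusted p = 0.00172. The iron exporter Slc40a1 (ferroportin), picked after its values were seen, was at 139 ± 11.9 CPM in untreated and 48.1 ± 7.299 in rapamycin-treated knockouts against 50.8 ± 12.1 in untreated and 39.9 ± 12.04 in rapamycin-treated controls, with an interaction of -1.18 ± 0.26 (SE), adjusted p = 0.0193. Gpx3, a secreted glutathione peroxidase also picked after its values were seen, fell from 1608 ± 474 to 368 ± 106 CPM in TSCmKO and was at 409.9 ± 61.7 and 352 ± 152 CPM in the control groups, with an interaction of -1.91 ± 0.34 (SE), adjusted p = 0.00557. Each of these 3 genes was called in all 20 fits that left out 1 library.

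Several genes of amino acid synthesis fell more with rapamycin in TSCmKO than in CON. ATF4 is a transcription factor that mTORC1 can activate and that drives the supply of amino acids for protein synthesis. Of 18 tested members of a list of serine, one-carbon, asparagine and proline synthesis genes, 4 were lower in the interaction and 0 higher (22.2% called, against 1.59% of all genes), with a median of -0.25 against -0.003 over all genes tested. They were Asns, asparagine synthetase (-1.68, adjusted p = 0.0414), Psat1 of serine synthesis (-1.39, adjusted p = 0.0289), Mthfd2 of the mitochondrial folate cycle (-1.29, adjusted p = 0.0227) and Got1, the cytosolic aspartate aminotransferase (-0.96, adjusted p = 0.0186). Asns was at 1.999, 1.65, 1.85, 1.19 and 1.64 CPM in the 9mCON libraries and 0.935, 0.814, 1.08, 0.935 and 1.14 in those of 9mCON+RM. It was at 3.78, 8.16, 12.1, 6.69 and 6.25 CPM in the 9mTSCmKO libraries and 0.775, 1.54, 1.56, 0.957 and 1.87 in those of 9mTSCmKO+RM. The 9mTSCmKO libraries lay above the other 15, and rapamycin brought Asns to levels that overlapped those of 9mCON. Got1 (chr19:43499752-43524605) was at 519.5, 783, 827, 733 and 609 CPM in the 9mTSCmKO libraries and 351, 308, 292, 288 and 265 in those of 9mTSCmKO+RM. In 9mCON it was at 508 ± 87.5 and in 9mCON+RM at 427 ± 51.3 CPM, so that every 9mTSCmKO+RM library was below every 9mCON library.

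Of 17 amino acid transporter genes tested, 2 were lower and 0 higher (11.8% called, against 1.59% of all genes), with a median of -0.39. They were Slc3a2, the heavy chain of the large neutral amino acid exchanger (-0.66, adjusted p = 0.0286), and the glycine transporter Slc6a9 (-1.10, adjusted p = 0.0482), of which 28.3% of the 31-mers are shared with other genes, mainly Ccdc24. Slc3a2 fell in TSCmKO, with changes of -0.68 in TSCmKO (adjusted p = 0.000118) and -0.02 in CON (adjusted p = 0.964), whereas Slc6a9 rose in CON, with changes of -0.36 in TSCmKO (adjusted p = 0.184) and 0.74 in CON (adjusted p = 0.034). In a list of 18 genes of ATF4 and the integrated stress response, 10 fell with rapamycin in TSCmKO and 1 in CON (11.6% and 3.6% of all genes). In edgeR's test of the interaction 1 was called (5.56%), Trib3, a pseudokinase induced by stress (-2.21, adjusted p = 0.0474), and the median was -0.48. DESeq2 called 4 of the 18, limma on log2(TPM + 1) 2 and weighted limma 0, and 2 were called in all 40 libraries, 2 without the 4 libraries that stood apart and 0 with the tendon marker term. Other members were not past the threshold, among them Ddit4, an inhibitor of mTORC1 (-1.54, adjusted p = 0.0832), Sesn2 (-0.95, adjusted p = 0.111), the translation repressor Eif4ebp1 (-0.71, adjusted p = 0.0858) and Atf4 itself (-0.39, adjusted p = 0.489). Of 20 cytosolic aminoacyl-tRNA synthetases, Nars was lower (-0.71, adjusted p = 0.0321), 0 were higher (5% called) and the median was -0.16. Of 25 chaperones of the endoplasmic reticulum, Hspa5, which encodes BiP, was lower and 0 were higher (4% called), with a median of -0.17. Hspa5 was at 224, 266, 254, 243 and 233 CPM in the 9mCON libraries and 168, 186, 169, 186 and 200.0 in those of 9mCON+RM. It was at 484, 402, 494, 392 and 337 CPM in the 9mTSCmKO libraries and 159.6, 174, 174, 178 and 172 in those of 9mTSCmKO+RM. Both genotypes fell without overlap between treated and untreated libraries, and the fall was larger in TSCmKO, with an interaction of -0.87 ± 0.16 (SE), adjusted p = 0.00557.

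Leaving out 1 library at a time removed several of these calls. The call was lost for Trib3 in 16 of 20 (highest adjusted p = 0.0912, without 9mTSCmKO+RM replicate 2), Asns in 14 of 20 (highest adjusted p = 0.073, without 9mCON+RM replicate 5), Slc6a9 in 14 of 20 (highest adjusted p = 0.0946, without 9mTSCmKO+RM replicate 5), Nars in 9 of 20 (highest adjusted p = 0.0689, without 9mTSCmKO+RM replicate 5), Psat1 in 5 of 20 (highest adjusted p = 0.0589, without 9mTSCmKO+RM replicate 5), Slc3a2 in 4 of 20 (highest adjusted p = 0.0646, without 9mTSCmKO+RM replicate 2) and Mthfd2 in 1 of 20 (highest adjusted p = 0.0555, without 9mCON+RM replicate 5). Got1 and Hspa5 were called in all 20 such fits. With the mean log2 level of tendon markers as a term in the fit, 0 of the 4 synthesis genes were called, and without the 4 libraries that stood apart 3 were.

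Antioxidant genes of the NRF2 program, which detoxify reactive compounds and make glutathione and NADPH, fell with rapamycin in TSCmKO for 11 of 20 list members and in CON for 1, where 11.6% and 3.6% of all genes fell. In the interaction 3 were lower and 0 higher (15% called, against 1.59% of all genes), with a median of -0.51. The number called was 1 with the tendon marker term, 6 in a fit of all 40 libraries, 7 with DESeq2 and 2 to 5 without 1 library. Nqo1, a quinone reductase, was at 13.1 ± 0.253 CPM in untreated and 11.2 ± 1.56 in rapamycin-treated controls, and at 40.02 ± 7.94 and 16.99 ± 2.72 in the knockouts, with an interaction of -1.01 ± 0.20 (SE), adjusted p = 0.0111. Pgd, an NADPH-making enzyme of the pentose phosphate pathway, had an interaction of -1.11 (adjusted p = 0.0149), and Gclc, the catalytic subunit that starts glutathione synthesis, of -0.67 (adjusted p = 0.0361). Just outside the threshold were Txnrd1 (-0.83, adjusted p = 0.0509), Hmox1 (-1.21, adjusted p = 0.0722) and Srxn1 (-0.93, adjusted p = 0.0822). The call was lost on leaving out 1 library for Gclc in 9 of 20 (highest adjusted p = 0.0667, without 9mTSCmKO+RM replicate 2).

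In the lists of protein breakdown 1 autophagy and 1 lysosome gene were called. Sqstm1 (chr11:50199366-50210827) encodes p62, a receptor that hands cargo to autophagosomes and is itself a target of NRF2. It was at 623, 635, 534, 604 and 641 CPM in the 9mCON libraries and 638, 626, 636, 638 and 594 in those of 9mCON+RM. In the knockout it was at 1592, 1611, 2497, 1572 and 1647 CPM in the 9mTSCmKO libraries and 799.5, 824, 901, 908 and 840.1 in those of 9mTSCmKO+RM. The 9mTSCmKO+RM libraries lay between the vehicle-treated knockouts and both control groups without overlap. The interaction was -1.11 ± 0.18 (SE), adjusted p = 0.00274, and it was called in all 20 fits without 1 library and in all 11 other settings tried. Of 28 autophagy genes, whose median was -0.17, Sqstm1 was the 1 called by edgeR's test (3.57%, against 1.59% of all genes). In the same list 2 were called with DESeq2 and 3 in all 40 libraries. The next by p were Atg4b (-0.67, adjusted p = 0.0556) and Wipi1 (-0.53, adjusted p = 0.149). Of 35 lysosome and V-ATPase genes, 12 fell with rapamycin in TSCmKO and 1 in CON, beside 11.6% and 3.6% of all genes. In the interaction only Atp6v1h, a subunit of the proton pump, was lower (-1.07, adjusted p = 0.00812) and 0 were higher (2.86% called, against 1.59% of all genes). The median was -0.17, and 4 were called in a fit of all 40 libraries. Of 34 proteasome genes 0 passed the edgeR test (3 had an unadjusted p under 0.05, and DESeq2 called 2), where the median was -0.17 and Psmb5 came nearest (-0.62, adjusted p = 0.0799).

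At the neuromuscular junction 3 of 18 tested genes were called (16.7%, against 1.59% of all genes), 1 higher and 2 lower, and without the 4 libraries that stood apart 1 was. Colq encodes the collagen tail that anchors acetylcholinesterase in the synaptic cleft, Ache the enzyme itself, and Musk the kinase that organizes the postsynaptic membrane. Colq was at 11.1, 10.5, 7.66, 9.15 and 10.2 CPM in the 9mCON libraries and 9.01, 8.14, 14.7, 13.4 and 12.5 in those of 9mCON+RM. It was at 12.2, 17.8, 22.2, 15.4 and 11.2 CPM in the 9mTSCmKO libraries and 5.34, 5.88, 6.09, 3.83 and 5.56 in those of 9mTSCmKO+RM. The 9mTSCmKO libraries lay above and the 9mTSCmKO+RM libraries below all 5 libraries of 9mCON, and the interaction was -1.80 ± 0.28 (SE), adjusted p = 0.00222. Musk had an interaction of -1.32 (adjusted p = 0.0468), with changes of -0.72 in TSCmKO (adjusted p = 0.0315) and 0.60 in CON (adjusted p = 0.152). Ache went the other way, at 40.1 ± 13.7 CPM in untreated and 78.6 ± 17.4 in rapamycin-treated knockouts against 53.8 ± 3.4 in untreated and 47.7 ± 10.4 in rapamycin-treated controls, with an interaction of 1.15 (adjusted p = 0.0497). The median over the 18 junction genes was -0.20. The acetylcholine receptor subunits Chrna1, Chrnd and Chrng did not pass edgeR's test, with values of -0.51 (adjusted p = 0.393) for Chrna1, -0.73 (adjusted p = 0.262) for Chrnd and -2.46 (adjusted p = 0.408) for the fetal subunit Chrng, which was at 3 counts or fewer in each library of 1 control group, so that its fitted value is no bound. On log2(TPM + 1) limma called Chrng (-1.51, adjusted p = 0.0149). The calls of Musk and Ache were fragile and were lost for Musk in 16 of 20 (highest adjusted p = 0.0957, without 9mTSCmKO+RM replicate 5) and Ache in 16 of 20 (highest adjusted p = 0.0998, without 9mCON+RM replicate 2), whereas that of Colq was kept in all 20.

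Among 17 tested genes that respond to denervation, 2 were lower and 1 higher (17.6% called, against 1.59% of all genes), with a median of -0.12, while 1 was called without the 4 libraries that stood apart and 2 to 5 without 1 library. Gadd45a (chr6:67035096-67037457), a stress gene that rises in denervated muscle, was at 41.04, 59.2, 39.2, 24.5 and 23.1 CPM in the 9mCON libraries and 37.2, 26.5, 32.5, 26.2 and 38.2 in those of 9mCON+RM. It was at 233, 215, 329, 241 and 224 CPM in the 9mTSCmKO libraries and 81.3, 58.8, 62.5, 77.3 and 47.8 in those of 9mTSCmKO+RM. The vehicle-treated knockouts lay above the other 15 libraries, and the interaction was -1.71 ± 0.30 (SE), adjusted p = 0.00557. Sln encodes sarcolipin, a small inhibitor of the calcium pump of the sarcoplasmic reticulum. It was at 1.49 ± 0.434 CPM in untreated and 2.23 ± 0.609 in rapamycin-treated controls, and at 24.1 ± 12.4 and 8.78 ± 2.06 in the knockouts, with an interaction of -2.04 ± 0.43 (SE), adjusted p = 0.0154. Fgfbp1, a secreted FGF-binding protein made by muscle that helps to maintain the junction, was higher (2.76, adjusted p = 0.0242), at 0.137 ± 0.144 CPM in untreated and 0.663 ± 0.455 in rapamycin-treated knockouts, both far below 7.63 ± 1.69 in 9mCON. The call was lost for Fgfbp1 in 3 of 20 (highest adjusted p = 0.0565, without 9mTSCmKO replicate 4). Other genes of the denervation and stress response named by the study did not pass the threshold, with -0.81 (adjusted p = 0.165) for the cell cycle inhibitor Cdkn1a, -0.67 (adjusted p = 0.42) for Runx1, 0.51 (adjusted p = 0.713) for myogenin (Myog) and -1.29 (adjusted p = 0.27) for metallothionein 2 (Mt2). Keratin 18 (Krt18) stood at 19.6 ± 9.904 CPM in untreated and 16.4 ± 6.297 in rapamycin-treated knockouts (-1.07, adjusted p = 0.483). Keratin 8 (Krt8) was at 12.1, 13.4, 34.7, 10.3 and 13.02 CPM in the 9mTSCmKO libraries and 0.155, 0.856, 1.02, 2.12 and 0.544 in those of 9mTSCmKO+RM, with both control groups at the floor of 3 counts per library, so that no interaction could be read from it.

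Genes of the contractile apparatus moved both ways, with 3 of 37 higher and 2 lower (13.5% called, against 1.59% of all genes) and a median of -0.00. Myl2, the slow and cardiac regulatory light chain, was at 16.6, 17.1, 14.9, 15.8 and 20.7 CPM in the 9mCON libraries and 13.6, 16.8, 30.9, 23.4 and 13.4 in those of 9mCON+RM. It was at 563, 488, 706, 724 and 322 CPM in the 9mTSCmKO libraries and 199, 156, 144, 209 and 269 in those of 9mTSCmKO+RM. Every knockout library was above every control library, and rapamycin lowered Myl2 without overlap in TSCmKO. The interaction was -1.72 ± 0.33 (SE), adjusted p = 0.00773. Myoz2, the Z-disc protein of slow fibers and heart, was changed by rapamycin in CON and not called in TSCmKO, with changes of -0.38 in TSCmKO (adjusted p = 0.0954) and 0.87 in CON (adjusted p = 0.00324) and an interaction of -1.25 ± 0.23 (SE), adjusted p = 0.00557. Slow troponin C (Tnnc1, -2.10, adjusted p = 0.0553) and slow troponin I (Tnni1, -2.01, adjusted p = 0.125) were not past the threshold. Mybpc2, the fast myosin-binding protein C, was higher, at 1864 ± 382 CPM in untreated and 5661 ± 715 in rapamycin-treated knockouts against 4635 ± 587 in untreated and 7873 ± 119 in rapamycin-treated controls (0.84, adjusted p = 0.0352). It rose in both genotypes, by a log2 change of 1.60 in TSCmKO and 0.76 in CON.

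Mybph, a myosin-binding protein H that is linked to muscle growth and stress, was at 127, 77.9, 52.01, 32.3 and 41.6 CPM in the 9mCON libraries and 51.6, 15.98, 36.6, 35.04 and 12.97 in those of 9mCON+RM. It was at 14.8, 15.6, 28.96, 14.4 and 15.7 CPM in the 9mTSCmKO libraries and 110.5, 63.5, 45.5, 73.5 and 70.1 in those of 9mTSCmKO+RM. The 9mTSCmKO+RM libraries lay above all libraries of 9mTSCmKO and overlapped those of 9mCON. The interaction was 3.14 ± 0.52 (SE), adjusted p = 0.00401, although 46.3% of the 31-mers of Mybph are shared with other genes, mainly its neighbor Adora1, so that reads could have been divided between them. Casq2, the slow-fiber and cardiac calsequestrin that stores calcium, was lower (-0.91, adjusted p = 0.0488), and Rcan1, an inhibitor of calcineurin that calcineurin itself induces, was higher (1.29, adjusted p = 0.0246). Rcan1 was at 100 ± 11.5 CPM in untreated and 322 ± 55.9 in rapamycin-treated knockouts against 66.5 ± 17.7 in untreated and 87.6 ± 27.8 in rapamycin-treated controls, so that all 5 rapamycin-treated knockouts exceeded the controls. With Sln, these were the 3 called of 33 tested ion channel and calcium genes (9.09%, against 1.59% of all genes), whose median was 0.13. The call was lost for Casq2 in 16 of 20 (highest adjusted p = 0.0907, without 9mCON replicate 3), Mybpc2 in 13 of 20 (highest adjusted p = 0.0814, without 9mTSCmKO+RM replicate 3) and Rcan1 in 4 of 20 (highest adjusted p = 0.0576, without 9mCON+RM replicate 4). Of the 33, 1 was called without the 4 libraries that stood apart, 5 with DESeq2, 7 in all 40 libraries and 1 to 4 without 1 library.

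The promoters of 4 of these genes are shown, picked because each holds a searched string of letters. The string found in Sqstm1, Musk and Mybph was about as frequent among called genes as among all genes (17.5% of lower and 19.7% of higher genes, against 18.3%). They come from RefSeq on GRCm38.p6 and run from 250 bases before to 50 after a start site, in the direction of the gene, with the matched letters in capitals. The letters TGATGCAA, a core bound by C/EBP and ATF factors, were searched on both strands and were found in Got1 (chr19:43524556-43524855, minus strand) as TTGCATCA from base 149. The letters CAGCTG, an E-box of myogenic factors, were found in Sqstm1 (chr11:50210771-50211070, minus strand) from base 283, after the start site, in Musk (chr4:58285712-58286011, plus strand) from base 183 and in Mybph (chr1:134193198-134193497, plus strand) from base 172.
Got1: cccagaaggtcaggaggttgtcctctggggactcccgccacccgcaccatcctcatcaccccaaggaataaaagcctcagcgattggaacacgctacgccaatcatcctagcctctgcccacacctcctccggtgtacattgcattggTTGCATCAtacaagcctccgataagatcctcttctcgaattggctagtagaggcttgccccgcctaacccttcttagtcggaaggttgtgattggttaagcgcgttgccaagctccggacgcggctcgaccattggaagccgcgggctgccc
Sqstm1: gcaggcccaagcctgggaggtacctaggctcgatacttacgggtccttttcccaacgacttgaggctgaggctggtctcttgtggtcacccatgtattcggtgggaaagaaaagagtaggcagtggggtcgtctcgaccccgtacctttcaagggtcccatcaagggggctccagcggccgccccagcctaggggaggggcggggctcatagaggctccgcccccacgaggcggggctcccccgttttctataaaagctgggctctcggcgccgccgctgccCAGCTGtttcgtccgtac
Musk: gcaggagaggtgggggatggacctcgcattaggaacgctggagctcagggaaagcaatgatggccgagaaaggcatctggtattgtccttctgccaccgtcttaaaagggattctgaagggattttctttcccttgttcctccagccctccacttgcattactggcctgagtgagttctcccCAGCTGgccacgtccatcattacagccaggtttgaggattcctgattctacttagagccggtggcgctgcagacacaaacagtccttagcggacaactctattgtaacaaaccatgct
Mybph: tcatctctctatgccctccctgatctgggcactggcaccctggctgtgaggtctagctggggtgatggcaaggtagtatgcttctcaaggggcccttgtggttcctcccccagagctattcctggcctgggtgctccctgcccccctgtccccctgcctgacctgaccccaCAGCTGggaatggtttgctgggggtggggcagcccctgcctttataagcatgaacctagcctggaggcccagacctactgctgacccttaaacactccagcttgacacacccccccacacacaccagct

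A promoter was given for 76 of the higher, 80 of the lower and 10109 of 13139 tested gene symbols, which stand for the 13159 gene identifiers. The C/EBP and ATF core was in 2 of the 80 lower genes (2.5%, Got1 and Plekhh3), in 0 of the 76 higher genes and in 69 genes in all (0.683%). The myogenic E-box was in 14 lower genes (17.5%), among them Musk, Myoz2 and Sqstm1, in 15 higher genes (19.7%), among them Mybph, and in 18.3% of all genes. The letters TCACGTGA, the E-box of lysosomal gene promoters, were in 1 lower gene (1.25%), 3 higher genes (3.95%) and 2.14% of all genes. Windows of this length hold only part of what can regulate a gene, and a match describes letters and not binding.

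Several secreted factors and signaling regulators were higher in the interaction. Of 27 tested genes of the myostatin, activin and BMP pathways and of secreted factors, 4 were higher and 1 lower (18.5% called, against 1.59% of all genes), with a median of 0.10. Cish (chr9:107296026-107302784), a feedback inhibitor of cytokine and growth hormone signaling through STAT5, had the largest positive interaction among genes reaching 5 CPM. It was at 10.2, 37.9, 12.3, 20.5 and 16.4 CPM in the 9mCON libraries and 7.54, 6.11, 4.82, 6.89 and 9.03 in those of 9mCON+RM. It was at 1.86, 2.33, 4.26, 2.52 and 1.95 CPM in the 9mTSCmKO libraries and 12.2, 22.8, 22.1, 6.84 and 3.38 in those of 9mTSCmKO+RM. Rapamycin lowered Cish without overlap in CON and raised it in TSCmKO, where the ranges overlapped, and the interaction was 3.88 ± 0.60 (SE), adjusted p = 0.00222. Fst (chr13:114452290-114458951), follistatin, which binds and blocks myostatin and activin, was at 8.88, 7.401, 8.14, 6.497 and 10.5 CPM in the 9mCON libraries and 3.34, 7.17, 7.48, 7.31 and 4.35 in those of 9mCON+RM. In the knockout it was at 3.000, 3.79, 7.48, 5.03 and 5.29 CPM in the 9mTSCmKO libraries and 8.91, 14.6, 18.1, 12.1 and 20.9 in those of 9mTSCmKO+RM. The 9mTSCmKO+RM libraries lay above all of 9mTSCmKO, and the interaction was 2.08 ± 0.37 (SE), adjusted p = 0.00557.

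Dkk3, a secreted glycoprotein of the Dickkopf family, was at 362 ± 28.3 in untreated and 386 ± 55.7 in rapamycin-treated controls but at 4.08 ± 0.8801 in 9mTSCmKO and 14.1 ± 5.87 in 9mTSCmKO+RM. The interaction was 1.68 ± 0.30 (SE), adjusted p = 0.00557, and Dkk3 stayed far below control muscle in both knockout groups. Il15, a cytokine made by muscle, rose in TSCmKO, with changes of 0.95 in TSCmKO (adjusted p = 0.00754) and -0.62 in CON (adjusted p = 0.152) and an interaction of 1.57 (adjusted p = 0.0211). The activin receptor Acvr1b was lower (-1.02, adjusted p = 0.0244), at 36.9 ± 7.296 CPM in 9mTSCmKO+RM against 66.1 ± 10.3 in 9mCON, whereas Bmp1, a procollagen-cutting protease, was higher (1.23, adjusted p = 0.0457) and had its called change in CON, with changes of 0.45 in TSCmKO (adjusted p = 0.15) and -0.78 in CON (adjusted p = 0.0358), where fibroblast markers also fell. Irs2, the adaptor between the insulin receptor and PI3K, was at 24.2, 48.5, 50.5, 56.2 and 56.4 CPM in the 9mCON libraries and 27.98, 31.8, 23.01, 26.6 and 26.4 in those of 9mCON+RM. It was at 17.3, 27.1, 14.3, 17.5 and 20.8 CPM in the 9mTSCmKO libraries and 28.9, 31.6, 42.6, 26.2 and 28.5 in those of 9mTSCmKO+RM. Irs2 fell in CON and rose in TSCmKO, with changes of 0.70 in TSCmKO (adjusted p = 0.0134) and -0.80 in CON (adjusted p = 0.0183) and an interaction of 1.498 ± 0.28 (SE), adjusted p = 0.00639. It was the 1 gene called by edgeR's test of 24 in the list of insulin, IGF and AKT signaling (4.17%, against 1.59% of all genes). The median of that list was -0.03, and Igf1 (1.24, adjusted p = 0.0876) came next. DESeq2 called 3 of the 24, either limma fit 2 and the fit of all 40 libraries 3. The call was lost on leaving out 1 library for Bmp1 in 15 of 20 (highest adjusted p = 0.0891, without 9mTSCmKO+RM replicate 5) and Acvr1b in 3 of 20 (highest adjusted p = 0.0583, without 9mTSCmKO+RM replicate 5), and was kept in all 20 fits for Cish, Fst, Dkk3, Il15 and Irs2.

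The other genes with a large positive interaction were 2310020H05Rik (2.86, adjusted p = 0.00557), at 0.726 ± 0.4003 CPM in untreated and 6.92 ± 2.47 in rapamycin-treated knockouts, and Gm16576 (1.85, adjusted p = 0.00639), at 2.17 ± 0.914 and 11.3 ± 2.398 CPM. Lrrc74b (1.80, adjusted p = 0.00737) and the serine protease inhibitor Serpina3c (2.30, adjusted p = 0.0154) also rose in TSCmKO without overlap between treated and untreated libraries. In metabolism, 1 of 26 fatty acid genes was called (3.85%, against 1.59% of all genes), Lpl, the lipase that frees fatty acids from lipoproteins, which was higher (0.86, adjusted p = 0.0446). Of 25 glycolysis and glycogen genes 1 was called (4%), the lactate exporter Slc16a3, which was lower (-0.73, adjusted p = 0.0446). Of the 25 glycolysis genes 4 were called with DESeq2, 3 in all 40 libraries, 2 with the tendon marker term and 0 to 3 without 1 library. Both calls were lost in most fits without 1 library, for Lpl in 15 of 20 (highest adjusted p = 0.0946, without 9mTSCmKO+RM replicate 5) and Slc16a3 in 15 of 20 (highest adjusted p = 0.0971, without 9mTSCmKO+RM replicate 5). Of the 209 genes, 199 are annotated as protein-coding, and 16 share more than 20% of their 31-mers with other genes, Mybph and Slc6a9 among those named here.

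**Figure D2:**
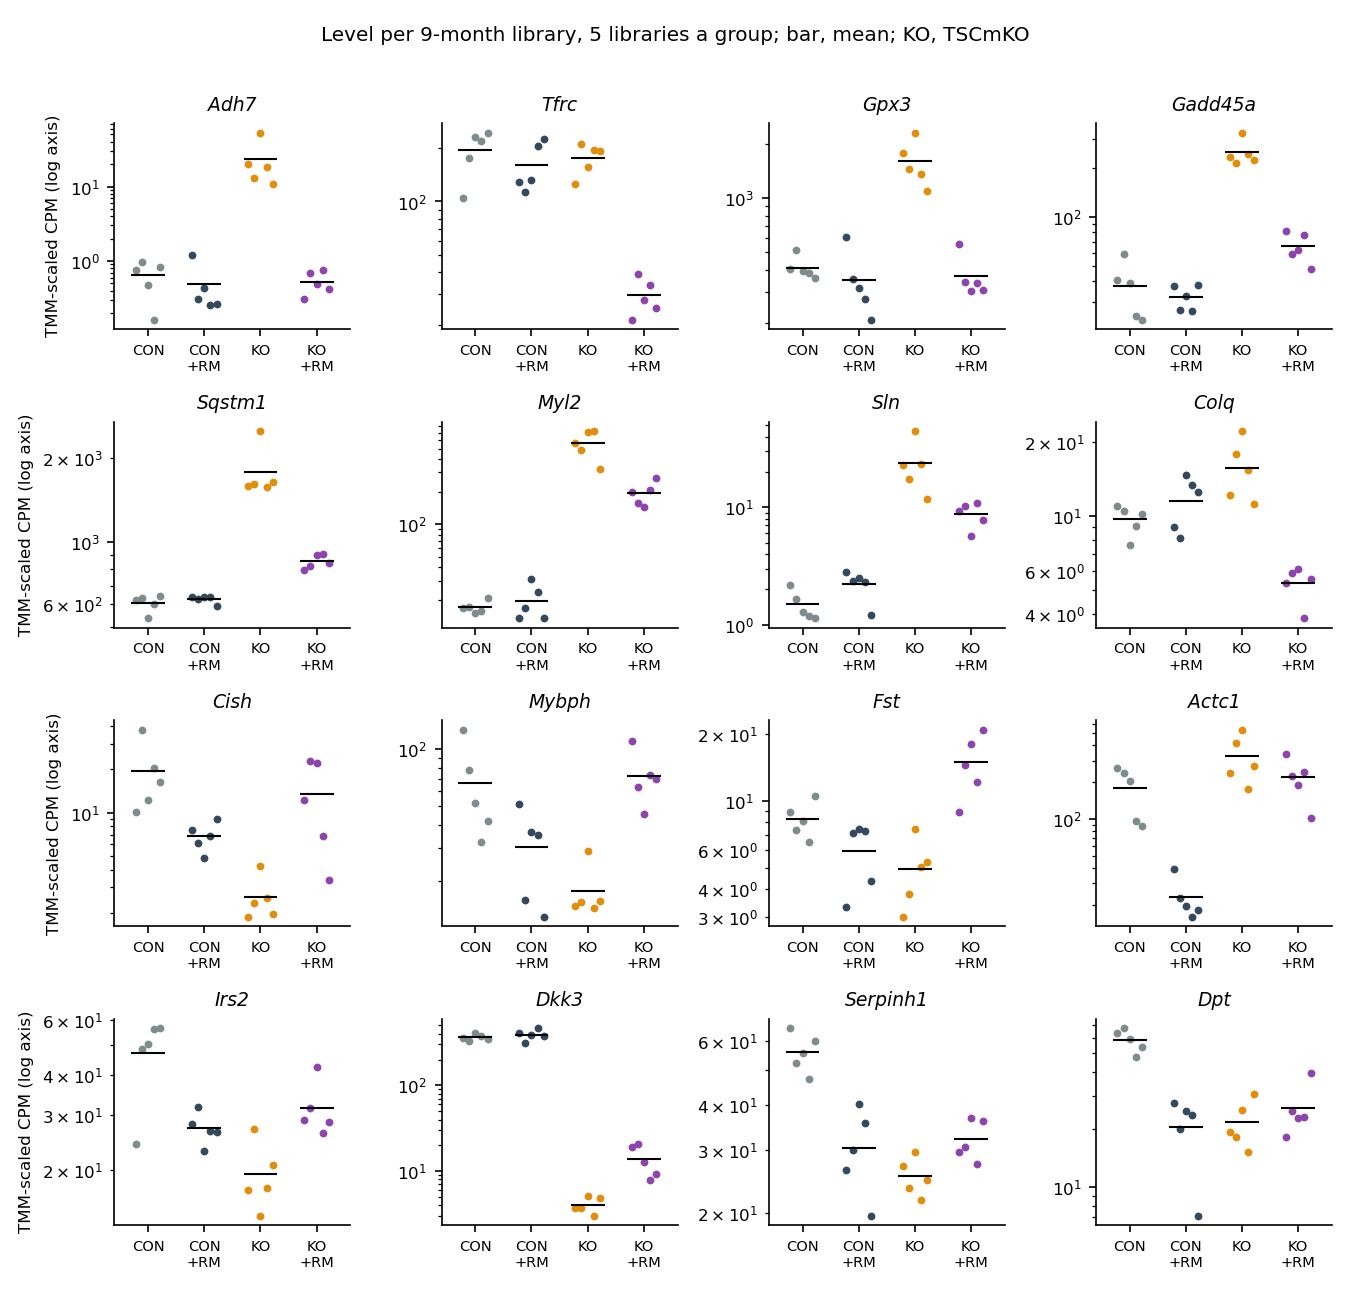
Level in TMM-scaled CPM (vertical log axis) of 16 genes in each of the 20 libraries, 5 points per group with a bar at the mean. KO stands for TSCmKO. Adh7, Gadd45a and Sqstm1 are highest in vehicle-treated knockouts, Tfrc is lowest in rapamycin-treated knockouts, and Actc1, Serpinh1 and Dpt are lower in 9mCON+RM than in 9mCON, with no overlap between the points of these groups.

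In 29 of the 106 higher genes the larger change was in CON, with a median of -1.25 there and 0.32 in TSCmKO. Of 36 tested genes for collagens and matrix, 22 fell with rapamycin in CON and 3 in TSCmKO, where 3.6% and 11.6% of all genes fell. The median interaction was 0.87, and it ran from 0.32 to 1.04 over all settings. In the interaction test 1 of the 36 was called (2.78%, against 1.59% of all genes), Serpinh1, the collagen chaperone HSP47. The CON arm varied with the fit, with 416 to 1042 genes called in place of 760 without 1 library and 1604 in all 40 libraries. With the tendon marker term 110 were called, but tendon markers themselves fell with rapamycin in CON, so that the term can take up part of the drug response. For the interaction, the fit of all 40 libraries called 5 of the 36, DESeq2 4, and the fits without 1 library 1 or 2. Serpinh1 was at 65.3, 52.3, 55.5, 47.2 and 60.2 CPM in the 9mCON libraries and 26.4, 30.02, 40.2, 35.5 and 19.7 in those of 9mCON+RM. It was at 27.00, 23.4, 29.6, 21.7 and 24.8 CPM in the 9mTSCmKO libraries and 29.6, 30.5, 36.7, 27.4 and 36.1 in those of 9mTSCmKO+RM. The untreated controls lay above all other 15 libraries, and the interaction was 1.23 ± 0.22 (SE), adjusted p = 0.00557. Col15a1 (1.58, adjusted p = 0.0559), Col6a2 (1.51, adjusted p = 0.101) and Fbn1 (1.57, adjusted p = 0.105) were not past the threshold. Dermatopontin (Dpt), a matrix protein and fibroblast marker picked after its values were seen, was at 58.3 ± 7.93 CPM in untreated and 20.7 ± 8.04 in rapamycin-treated controls, and at 21.8 ± 6.13 and 25.8 ± 8.02 in the knockouts, with an interaction of 1.74 ± 0.37 (SE), adjusted p = 0.0167. Fndc1 (2.11, adjusted p = 0.01), the adhesion receptor Adgrd1 (1.87, adjusted p = 0.0392) and the matrix protein Emilin2 (1.86, adjusted p = 0.0451) also had their called change in CON and not in TSCmKO. The calls of these last 2 were lost for Adgrd1 in 11 of 20 (highest adjusted p = 0.093, without 9mTSCmKO+RM replicate 3) and Emilin2 in 14 of 20 (highest adjusted p = 0.1, without 9mTSCmKO+RM replicate 5).

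Markers of some other cell types were also lower with rapamycin in CON. With rapamycin, 6 of 8 fibroblast, 6 of 8 tendon and 7 of 8 macrophage markers fell in CON, and 0, 1 and 0 fell in TSCmKO, where 3.6% of all genes fell in CON and 11.6% in TSCmKO. The summed fibroblast markers were 1154 to 2331 CPM in untreated and 181 to 880.4 in treated controls, and 387 to 1063 in untreated and 498 to 915 in treated knockouts. The summed tendon markers were 92.2 to 534, 32.7 to 73.7, 60.5 to 136 and 34.5 to 84.7 CPM in the same order, and the macrophage markers 41.1 to 126, 9.23 to 30.99, 34.1 to 69.3 and 29.1 to 38.99 CPM. For all 3 cell types the sums of 9mCON and 9mCON+RM did not overlap. Of the endothelial, satellite cell, adipocyte, smooth muscle and erythroid markers 0 were called lower in CON by edgeR's test, and of 8 Schwann cell markers 1 was. The summed satellite cell markers were higher with rapamycin without overlap in both genotypes, at 97.3 to 143 and 149 to 184 CPM in untreated and treated controls and 75.5 to 138 and 179 to 228 in the knockouts. In whole muscle, fewer cells of a type and less RNA per cell cannot be told apart, and the part of these markers in the results for matrix genes was not tested. With the mean log2 level of tendon markers as a term in the fit, 112 of the 209 genes were still called, the number of higher genes was 58 and that of lower genes 92. These markers themselves fell with rapamycin in CON, so that the term can take up part of the drug response there. Of 8 fibroblast markers Dpt was called in the interaction, and 0 of 8 tendon and 0 of 8 macrophage markers were in edgeR's test, with median interactions of 1.17, 1.47 and 1.39.

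**Figure D3:**
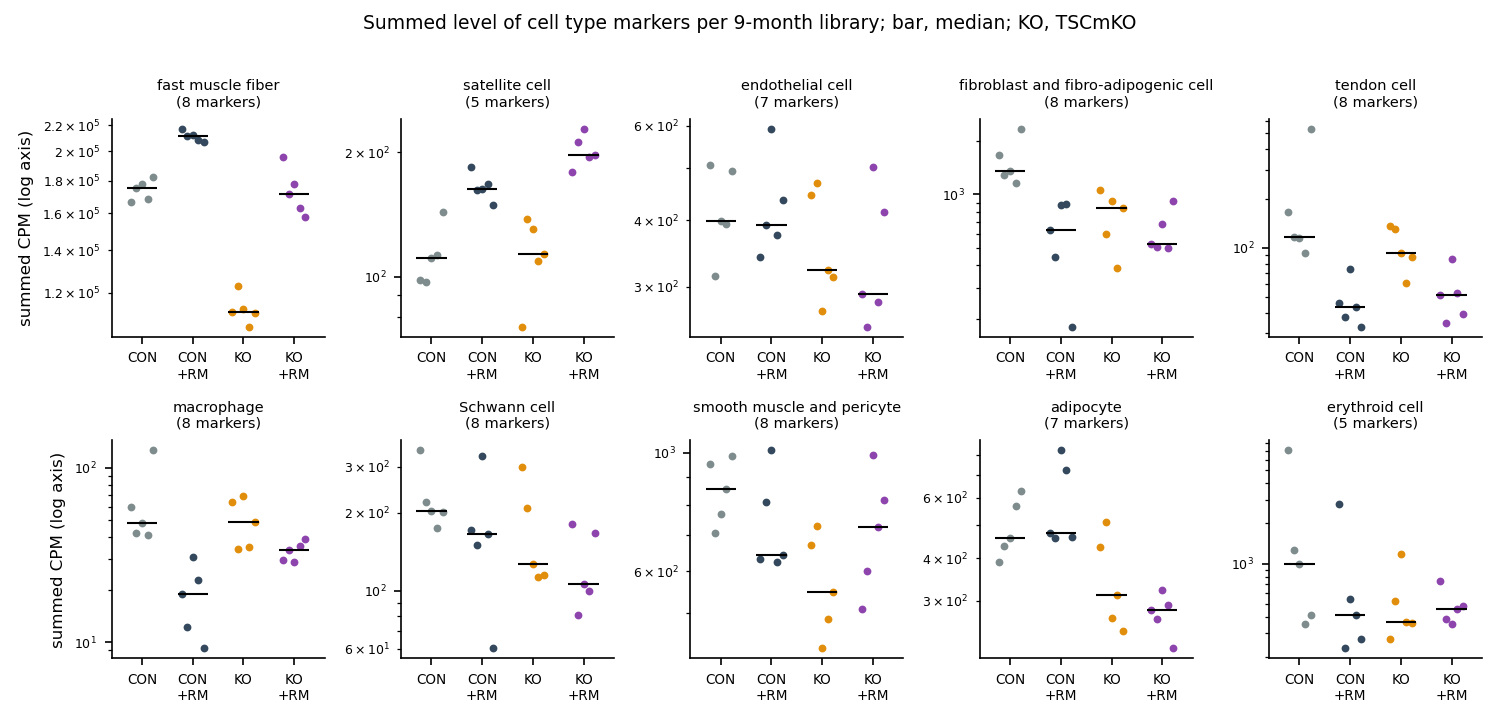
Summed CPM (vertical log axis) of the tested markers of 10 cell types in each of the 20 libraries, 5 points per group with a bar at the median. KO stands for TSCmKO. The fibroblast, tendon and macrophage sums of 9mCON+RM all lie below those of 9mCON, while the knockout groups overlap for these cell types.

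Actc1 (chr2:114047282-114053548), the cardiac actin that is also made by regenerating fibers, also had its larger change in CON. It was at 261, 239, 205, 96.2 and 87.3 CPM in the 9mCON libraries and 39.4, 22.6, 19.7, 15.9 and 18.1 in those of 9mCON+RM. It was at 237, 419.9, 535, 177 and 269.6 CPM in the 9mTSCmKO libraries and 336, 224, 191, 243 and 102 in those of 9mTSCmKO+RM. Rapamycin-treated controls overlapped none of the untreated controls, while the knockout groups overlapped. The interaction was 2.36 ± 0.50 (SE), adjusted p = 0.0172, with changes of -0.58 in TSCmKO (adjusted p = 0.244) and -2.94 in CON (adjusted p = 0.000109). Without 9mTSCmKO+RM replicate 1 the adjusted p was 0.0375, the highest of 20 such fits.

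Of the 32 lists, 15 had 0 genes called in the interaction by edgeR's test, the proteasome list among them. Of 35 ribosome biogenesis genes, 15 were higher and 4 lower with rapamycin in TSCmKO and 11 higher and 0 lower in CON, where 11% of all genes rose in TSCmKO and 2.17% in CON, and 0 passed the interaction test (5 with an unadjusted p under 0.05, median -0.14). Of 40 genes for initiation and elongation of translation, 10 rose and 1 fell in TSCmKO and 9 rose and 0 fell in CON, beside the same shares of all genes, and 0 passed the interaction test (2 with an unadjusted p under 0.05, median -0.01). Of 42 ribosomal protein genes 0 were called in either arm or in the interaction by edgeR's test, with 0 at an unadjusted p under 0.05. Their median interaction was -0.24, and it ran from -0.38 to -0.01 over all settings. Of 34 interferon response and MHC class I genes, 13 fell and 1 rose in TSCmKO and 6 fell and 0 rose in CON, where 11.6% and 3.6% of all genes fell, with 0 called in the interaction (3 with an unadjusted p under 0.05, median 0.08). Also without a call by edgeR's test were cytosolic heat shock proteins (3 of 19 with an unadjusted p under 0.05, median -0.18), atrophy ubiquitin ligases and FoxO genes (8 of 20, -0.12), sterol synthesis (3 of 28, -0.07), the respiratory chain (0 of 54, -0.10), PGC-1 regulators (1 of 20, -0.06), polyamine and nucleotide synthesis (6 of 30, 0.08), keratins and intermediate filaments (0 of 13, -0.07), the dystrophin complex (3 of 20, 0.12), the circadian clock (3 of 19, 0.05) and proliferation (3 of 16 tested, -0.43), while 14.3% of all genes had such a p. Under the other settings 12 of these 15 lists had 1 to 3 genes called in at least 1 fit. With DESeq2 these were 2 genes each of the proteasome and of polyamine and nucleotide synthesis and 1 each of heat shock proteins, FoxO genes, sterol synthesis, ribosome biogenesis, translation, the dystrophin complex, the clock and proliferation. The lists for the respiratory chain, PGC-1 regulators and ribosomal proteins had 0 calls in any edgeR, DESeq2 or limma fit. Over all 32 lists 36 of 845 distinct tested members (4.26%) were called, against 1.59% of all genes. The absence of a call does not show equal responses, given the share of 1.5-fold and 2-fold interactions that the test found in the simulation.

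**Figure D4:**
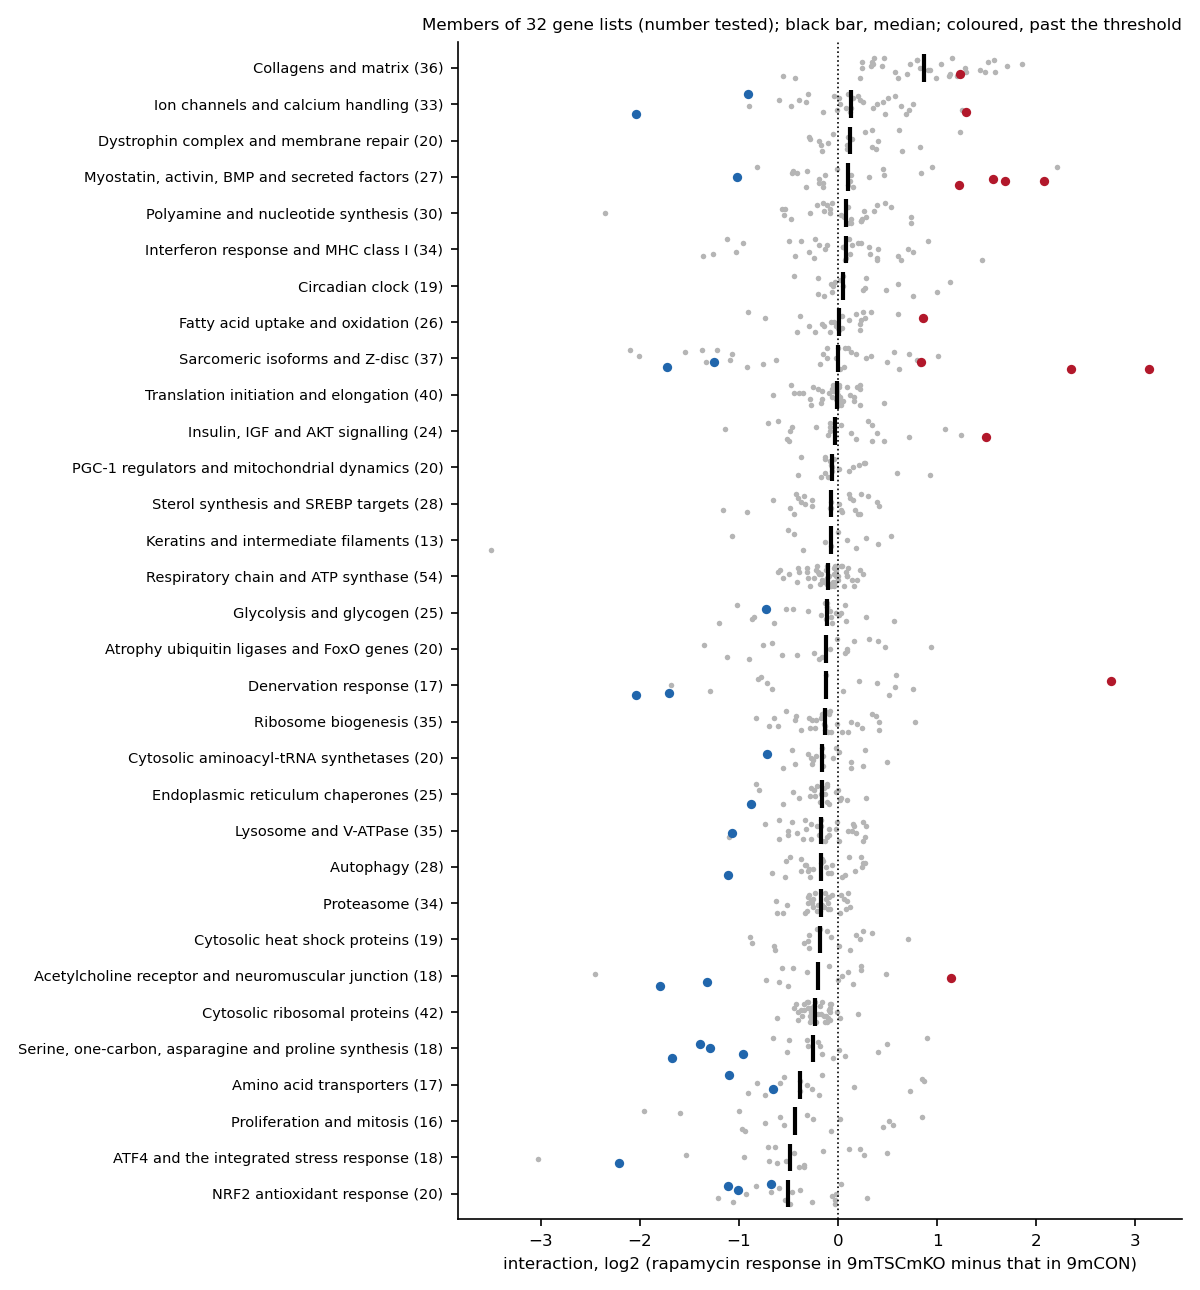
Interaction on the log2 scale (horizontal axis) of the tested members of 32 gene lists (vertical axis, number tested in brackets), with a black bar at each median and a dotted line at the median of all genes. Members past the threshold are red when higher and blue when lower. The list for collagens and matrix has the highest median, and the lists for NRF2 and ATF4 the lowest.

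The same contrast at 3 months rests on 20 other libraries, from mice of the same genotypes and treatments, and so serves as a repeat of the measurement. There 1194 of 13006 genes were called (9.18%), 446 higher (3.43%) and 748 lower (5.75%). In the fit of all 40 libraries, which share 1 estimate of the spread, 467 of 13543 genes were called at 3 months (3.45%) and 660 at 9 months (4.87%), so that which age had more calls depended on the fit. In that fit 74 of the 209 genes were called at 3 months (35.4%). Of the 209 genes, 204 could be tested at 3 months, where 180 (88.2%) had an interaction of the same sign, against 66.9% of 12780 genes tested at both ages, and 88 (43.1%) were called, 87 of them in the same direction. The genes whose change was larger in TSCmKO and those whose change was larger in CON were counted separately, and the difference between the classes was not tested. Of the 77 higher genes of the first kind, 46 were called at 3 months (59.7%), with median interactions of 1.15 at 9 and 0.84 at 3 months. Of the 29 higher genes of the second kind, 0 were called at 3 months by edgeR, with medians of 1.37 and 0.16. Of 92 lower genes with the larger change in TSCmKO that could be tested, 41 were called (44.6%), with medians of -1.17 and -0.56 for that class. Of the 6 lower genes with the larger change in CON, 1 was called (16.7%), with medians of -1.16 and -0.55. Among the named genes, the value at 3 months was -2.99 (adjusted p = 6.36e-07) for Gpx3, -1.77 (adjusted p = 0.00231) for Tfrc, -1.59 (adjusted p = 0.000199) for Slc40a1, 3.58 (adjusted p = 0.000184) for 2310020H05Rik, 3.81 (adjusted p = 0.0413) for Cish, -0.78 (adjusted p = 0.013) for Sqstm1 and -0.84 (adjusted p = 0.00482) for Hspa5. Not called at 3 months were Adamts8 (-0.20, adjusted p = 0.882), Uchl1 (0.30, adjusted p = 0.732), Sln (0.73, adjusted p = 0.314), Myl2 (0.09, adjusted p = 0.968), Actc1 (-0.90, adjusted p = 0.54), Dkk3 (-0.06, adjusted p = 0.961) and Irs2 (-0.27, adjusted p = 0.527). None of these genes was called in the direct test of the difference between the ages, given next, so they are not shown to differ between ages. Adh7 was too low to be tested at 3 months.

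A direct test of the difference between the interactions at both ages, in a fit of all 40 libraries, called 5 of 13543 genes (0.0369%), 2 with a larger value at 9 months (0.0148%) and 3 with a smaller one (0.0222%), of which Ccdc39 and Map1b belong to the 209. With replicate as a block 2 of the 5 were called, Map1b (adjusted p = 0.0168) and Stbd1 (adjusted p = 0.0192), and the adjusted p was 0.0609 for Scn3b, 0.0679 for Ccdc39 and 0.119 for Mrvi1. Map1b, a microtubule-associated protein of neurons and of regenerating muscle, differed by -2.29 (adjusted p = 0.0113), with an interaction of -1.45 at 9 and 0.83 at 3 months. At 9 months it was at 170.2 ± 36.7 CPM in untreated and 51.96 ± 21.5 in rapamycin-treated knockouts against 27.2 ± 6.15 in untreated and 22.7 ± 4.88 in rapamycin-treated controls. Ccdc39, a protein of ciliary assembly with at most 1.13 CPM as a group mean, differed by 3.97 (adjusted p = 0.0154), with 2.79 at 9 and -1.18 at 3 months. The others were Scn3b, a sodium channel subunit (-2.80, adjusted p = 0.0178), Mrvi1 (1.67, adjusted p = 0.0272) and the glycogen-binding protein Stbd1 (-1.65, adjusted p = 0.00698), with interactions at 9 months that were not called. These 5 genes were chosen after their values were seen. The call at 9 months was lost for Map1b in 2 of 20 (highest adjusted p = 0.0564, without 9mTSCmKO+RM replicate 2), and for Ccdc39 in 3 of 20 (highest adjusted p = 0.055, without 9mCON+RM replicate 1). The spread between mice was smaller at 3 months (13.6 to 17.4%), age and library preparation cannot be told apart, and with so wide a spread at 9 months other differences between the ages could have been missed.

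**Figure D5:**
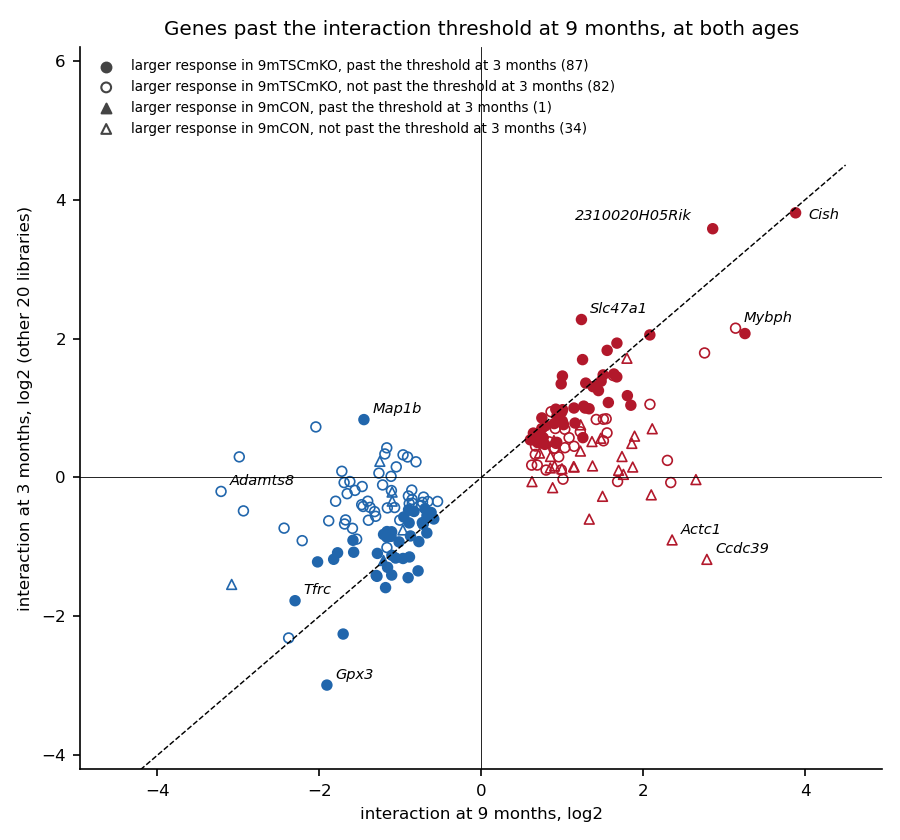
Interaction at 9 months (horizontal axis) against that at 3 months in 20 other libraries (vertical axis), both as log2, for the 204 of 209 genes tested at both ages. Circles had the larger rapamycin change in TSCmKO and triangles in CON, filled symbols were past the threshold at 3 months too, and the dashed line marks equal values. All triangles of the higher genes are open, and most filled circles lie in the quadrants of equal sign.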

How the data were processed

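The authors isolated poly(A) RNA from whole EDL muscle, sequenced directional single-end libraries, trimmed reads with cutadapt (1.9.1 in the submitters' notes) and assigned them to GRCm38 transcripts of Ensembl with kallisto (0.43.1). They divided reads that matched several transcripts and summed values per gene. The deposited tables hold estimated counts, which were whole numbers already, and TPM that the authors derived from them. The transcript set is uncertain, since the study text limits it to protein-coding transcripts while the table of 22844 genes holds others.

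Groups came from the labels, and 0 value columns were left without a sample. Genes with at least 1 CPM in 5 or more of the 20 libraries were tested with edgeR 4.0.16 in R 4.3.3 (TMM factors, robust quasi-likelihood F-tests of 4 group means, two-sided). P-values were adjusted by the Benjamini-Hochberg method over all genes tested, with a threshold of 0.05. Only 9-month libraries entered, because the spread between mice was larger at 9 than at 3 months. Standard errors were derived from the F statistics. The interaction at 3 months was fitted in its own 20 libraries and the difference between ages in all 40. The floor of detection was set at 3 counts per library in a group and covers counting error only. Gene positions are those of GENCODE M21 and promoters those of RefSeq. The share of 31-mers in transcripts of other genes was counted per gene.

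Named genes were Tsc1, genes that the study or earlier work names, the 12 largest interactions in each direction among called genes with a group mean of at least 5 CPM, called members of the gene lists, and up to 3 further members per list as values only. All other genes named were chosen after their values were seen. The comparison, the 32 lists and the markers were chosen with earlier results of these data known. Alternatives were scaling by size factors or upper quartile, DESeq2 1.42.0, limma 3.58.1 on weighted counts and on log2(TPM + 1) of the deposited TPM, no filter, insert size, a replicate block, all 40 libraries and leaving out each library. Leaving out the 4 libraries that stood apart and a tendon marker term were added after the data were seen. The script was tested on simulated data first.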

Additional observations from a re-analysis of the deposited data

Results flagged for a closer look

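Single libraries lay far from the other 4 of their group in 26 of 256 groups of values examined, for 64 named genes in 4 groups, by Dixon's test for the gap to the nearest value. Chance alone gives about 1 in 20. The values are in CPM, with the range of the other 4 libraries in brackets. In 9mTSCmKO replicate 3, these were Chrna1 at 86.3 (others 32.1 to 47.7), Gadd45a at 329 (others 215 to 241), Krt8 at 34.7 (others 10.3 to 13.4), Sqstm1 at 2497 (others 1572 to 1647), Adh7 at 52.9 (others 10.8 to 20.3), Trib3 at 10.6 (others 4.61 to 5.07), Cish at 4.26 (others 1.86 to 2.52), Mybph at 28.96 (others 14.4 to 15.7) and Nars at 265 (others 205 to 214). In 9mCON+RM replicate 1, these were Atf4 at 277 (others 182 to 209), Krt8 at 0.067 (others 0 to 0), Adh7 at 1.202 (others 0.255 to 0.431), Poln at 0.935 (others 0.102 to 0.34) and Actc1 at 39.4 (others 15.9 to 22.6). In 9mCON replicate 2, these were Chrna1 at 43.7 (others 33.5 to 35.3), Myog at 3.14 (others 1.12 to 1.45), Cdkn1a at 58.99 (others 31.1 to 38.6) and Casq2 at 29.98 (others 21.8 to 24.1). In 9mCON+RM replicate 2, these were Trib3 at 0.305 (others 1.34 to 1.67) and Gm16576 at 20.8 (others 14.97 to 16.6). In 9mCON replicate 1, it was Irs2 at 24.2 (others 48.5 to 56.4). In 9mCON replicate 5, it was Emilin2 at 9.804 (others 4.71 to 5.31). In 9mCON+RM replicate 5, it was Sqstm1 at 594 (others 626 to 638). In 9mTSCmKO+RM replicate 1, it was Slc6a9 at 12.01 (others 7.08 to 8.301). In 9mTSCmKO+RM replicate 3, it was Tsc1 at 25.5 (others 17.6 to 19.5). In 9mTSCmKO+RM replicate 4, it was Uchl1 at 29.3 (others 8.95 to 14.7). Of the 26, 9 fell in 9mTSCmKO replicate 3, 1 of the 4 libraries that stood apart, and the cause was not tested.

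The effect of rapamycin differed between the genotypes for 209 genes by the interaction test, and this difference itself differed between 9 and 3 months for 5 genes. The difference between the ages was 1.67 on the log2 scale for Mrvi1 and 3.97 for Ccdc39, and it was -1.65 for Stbd1, -2.80 for Scn3b and -2.29 for Map1b.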

How the results depend on the processing

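The direction of each of the 209 interactions was the same under all alternatives that gave a value, and 98 of the genes were called in all 20 fits without 1 library, 63 of them also in the other 11 settings. The number of calls varied more. Against 209 genes (106 higher, 103 lower) there were 660 (347 and 313) in a fit of all 40 libraries, 480 (231 and 249) with DESeq2 and 132 (66 and 66) with no filter. With insert size as a term there were 125 (65 and 60). That fit also left out 9mTSCmKO+RM replicate 5, which has no insert size, and without that library alone 135 were called. Tendon markers as a term left 58 higher genes. Without 1 library the counts ran from 128 to 252 in all, 53 to 117 higher and 64 to 140 lower. The total was lowest without 9mTSCmKO+RM replicate 2 or 3 (128 each) and was also reduced by more than 1.5 times without 9mCON replicate 3 (137), 9mCON+RM replicate 4 (134) or 5 (132), 9mTSCmKO replicate 4 (137) or 9mTSCmKO+RM replicate 5 (135). Rapamycin in CON, with 760 genes, gave 1604 in all 40 libraries, 1147 with DESeq2, 110 with tendon markers as a term and 416 to 1042 without 1 library. The tendon markers themselves fell with rapamycin in CON, so that this term can take up part of the drug response. Rapamycin in TSCmKO, with 2966, gave 4410 in all 40 libraries, 3384 with DESeq2 and 2301 to 3093 without 1 library. The interaction at 3 months, with 1194 genes, gave 467 in all 40 libraries. Of the 209 genes, 204 were called in all 40 libraries, 209 with DESeq2, 181 with weighted limma, 140 on log2(TPM + 1) and 129 without the 4 libraries that stood apart. With DESeq2 size factors 216 genes (105 and 111) and with upper-quartile scaling 214 genes (128 and 86) were called.

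Replicate numbers recur in the groups, but same-numbered libraries did not deviate together (30 pairs, r from -0.39 to 0.45, median -0.02, 4 of 20 libraries closest to their own number). With replicate as a block 171 genes were called, 153 of them among the 209, and the difference between ages was called for 2 genes in place of 5. Total counts of 12234422 to 21315299 and 5 mice per group limit what could be seen, and genes at a few counts in a group, such as Krt8, allow no reading of the interaction.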
